A study of Mus musculus with 14 samples.

Results

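The early loss of the lysine acetyltransferase Tip60 was examined by comparing the 3 libraries of Tip60-/- mouse embryonic fibroblasts (MEFs; called KO here) with the 3 libraries of Tip60+/+ MEFs (control) at the 3-day time point, across all genes. Samples were assigned by the genotype and day in their labels. These are 6 of the 14 RNA-seq libraries of the series, and the other 8 were collected at 5 days. MEFs are primary connective tissue cells grown out of embryos, here from day 13.5 of gestation and kept at 3% oxygen. Deletion was started with 250 nM 4-hydroxytamoxifen (4-OHT), a ligand used to switch on Cre recombinases fused to an oestrogen receptor. The treatment is described in the same words for every sample, and the labels do not say separately what the control cultures received. Neither the Cre driver nor the part of the gene removed is given in the sources used here.

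The control libraries (replicates 1, 2 and 3) were all female and came from 2 embryos of 1 litter. Replicates 1 and 2 carry the same embryo label. The KO libraries (replicates 2, 3 and 4) came from 3 embryos of 2 other litters. Replicate 2 was female, and replicates 3 and 4 were male littermates. No litter held both genotypes, so genotype and litter cannot be told apart. Of the 8 embryos in the series, 5 gave libraries at both days. All 14 libraries entered the fit, so the p values below measure the spread within the groups of both days, and libraries of 1 embryo were counted as separate. Values for single libraries are read counts scaled to a common library total (CPM), always in the order of replicates 1, 2 and 3 for control and 2, 3 and 4 for KO. Fold changes are KO against control on the log2 scale with their standard error (SE).

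Tip60 is encoded by Kat5. It is the catalytic subunit of a large chromatin complex built on the scaffold Trrap and the ATPase Ep400, which acetylates histones and exchanges histone variants at promoters. Outside the nucleosome it is best known for acetylating the DNA damage kinase ATM and for acting as a coactivator of transcription factors, Myc and p53 among them. In dividing fibroblasts these routes touch growth, the cell cycle and DNA repair.

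Kat5 mRNA was present at 31.5, 32.3 and 32 CPM in control and at 21.1, 20.2 and 18.3 CPM in KO. Every KO library lay below every control library, and the KO mean was 62.2% of the control mean (log2 fold change -0.68 ± 0.086, adjusted p = 2.02e-05; exact permutation p = 0.1, two-sided, the smallest that 20 labelings of 3 against 3 allow). With libraries of 1 embryo averaged, a choice made after seeing the data, there were 2 control and 3 KO embryos and the exact two-sided permutation p was 0.1, the smallest that 10 labelings allow. A gene-level count holds reads from all exons of the gene (chr19:5603014-5611556, mm10), so the remaining reads do not measure how many cells kept an intact gene. Among the 18 tested members of the Tip60 complex, 3 were called higher and 6 lower. A gene counts as called where its adjusted p was below 0.05 (edgeR's quasi-likelihood test, Benjamini-Hochberg over all genes tested). Of all 14327 genes tested, 50.9% were called, 24.6% higher and 26.2% lower in KO.

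Neither of the large core subunits was called. Trrap was at 188, 199 and 193 CPM in control and 184, 184 and 207 in KO, and the groups overlapped (log2 fold change -0.012 ± 0.077, adjusted p = 0.912). Ep400 was at 127, 133 and 130.0 CPM in control and 128, 142 and 158 in KO, also overlapping (log2 fold change 0.14 ± 0.083, adjusted p = 0.179). Morf4l2, another subunit, fell (-0.74 ± 0.069, adjusted p = 1.69e-06), and Epc1, which bridges the acetyltransferase module to the rest, rose (0.61 ± 0.088, adjusted p = 6.65e-05). Of 10 other lysine acetyltransferases 4 fell and none rose. With libraries scaled by their upper quartile instead, 1 fell and 3 rose. Kat7, a relative of Tip60 in the MYST family, fell from 92.7, 89.6 and 81.1 CPM to 67.6, 59.2 and 60.8 CPM without overlap (log2 fold change -0.48 ± 0.075, adjusted p = 0.000122). Ep300, a coactivator acetyltransferase, and Kat2a, the catalytic subunit of SAGA, fell by little (-0.35 ± 0.094 and -0.37 ± 0.10).

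**Figure D1:**
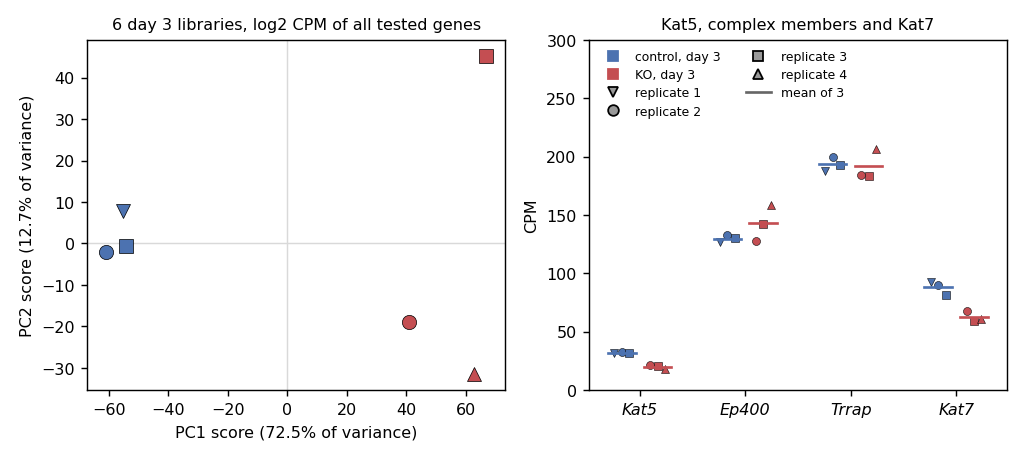
The left panel plots the 6 libraries on the first 2 principal components of log2 CPM, with the share of variance on each axis, and the right panel plots CPM on a linear axis from 0 for Kat5, Ep400, Trrap and Kat7, one point per library and a bar at the mean of 3. Control (blue) and KO (red) separate along the first component, and Kat5 and Kat7 separate without overlap while Ep400 and Trrap overlap.

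Depth differed widely. Controls held 9160637 to 12908651 counts and KO libraries 39203154 (replicate 2), 2187168 (replicate 3) and 10488613 (replicate 4). KO replicate 3 is therefore the least precise library. The first principal component held 72.5% of the variance and separated the genotypes, and the second (12.7%) separated KO replicates 3 and 4. Pearson correlations of log2 CPM were 0.985 to 0.991 among controls, 0.967 to 0.980 among KO libraries and 0.904 to 0.945 between groups. The median SD of a gene over KO libraries was 0.196 on the log2 CPM scale, against 0.15 over controls.

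Tip60-deleted fibroblasts differed from control in both directions alike. Among the gene groups read here, the called genes of the secreted matrix, skeletal tissues and Wnt, BMP and IGF signalling were mainly higher. Those of protein synthesis, protein folding in the endoplasmic reticulum (ER), amino acid supply and glycolysis were mainly lower. In all 3529 genes rose and 3759 fell, 2279 (15.9%) did so by more than 1.5-fold in edgeR's glmTreat test (1372 higher, 907 lower), and for 8282 genes (57.8%) the 3 KO libraries lay wholly on one side of the 3 controls. Of these, 6837 were called. Large rises were more frequent than large falls: 1706 genes rose and 836 fell past 2-fold, and 325 rose and 27 fell past 8-fold.

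Direction depended on a gene's level. In the lowest 20% of genes by mean log2 CPM, 31.1% were higher and 9.35% lower, with a median log2 fold change of 0.50. In the highest 20%, 19.1% were higher and 42.5% lower, with a median of -0.17. The shortest 20% of genes had a median of -0.13 and the longest 20% a median of 0.05. The ribosomal proteins, described further on, are an example of short and highly expressed genes. Upper quartile scaling moved the median of all genes from -0.004 to 0.122 and the share of calls that were higher from 48.4% to 62.1%, so the balance of directions holds only relative to the scaling used.

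The 8 most raised genes at 20 CPM or more were mainly secreted or surface proteins. Cldn11, a claudin of tight junctions, had 3 counts over all controls and 1337 over KO, or 283 times the control level (95% counting interval 96.6 to 1370). Scara5, a ferritin receptor, went from 0.342, 0.0779 and 0.0933 CPM to 14.9, 24 and 49 CPM (log2 fold change 7.49 ± 1.07, adjusted p = 0.00014). Il1rn, the interleukin-1 receptor antagonist, went from 1.83, 3.97 and 3.92 CPM to 183, 245 and 371 CPM (log2 fold change 6.32 ± 0.77, adjusted p = 4.53e-05). For both, the lowest KO library stood more than an order of magnitude above the highest control. Cemip, a hyaluronan-degrading enzyme, was at 13.9 to 22.3 CPM in control and 665 to 1373 CPM in KO (5.75 ± 0.82, adjusted p = 0.000153), and Abi3bp, a matrix protein, at 4.91 to 8.68 CPM and 138 to 417 CPM (5.35 ± 0.66, adjusted p = 5.03e-05). Comp, Omd and Cxcl5, the other 3, belong to groups described further on.

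The 8 most lowered genes were of mixed function. Slc6a9, the glycine transporter GlyT1, fell from 156, 184 and 167 CPM to 22.3, 16.9 and 19.6 CPM, with tight values in both groups (log2 fold change -3.06 ± 0.16, adjusted p = 1.83e-08). Unc13a, a vesicle priming protein of neurons, fell from 92.8, 76.9 and 76.3 CPM to 8.02, 13.2 and 5.94 CPM (log2 fold change -3.35 ± 0.43, adjusted p = 5.64e-05). P3h2, a collagen prolyl 3-hydroxylase, fell from 28, 27.8 and 26.6 CPM to 3.61, 2.82 and 4.73 CPM (log2 fold change -2.81 ± 0.25, adjusted p = 1.26e-06). None of these overlapped between groups, which was a condition of the choice of the most raised and most lowered genes. The adaptor Sh2d6 (-4.31), the metalloproteinase Adam33 (-3.35), the mitochondrial protein Chchd10 (-3.29), the metalloreductase Steap1 (-3.23) and the protease-activated receptor F2rl1 (-3.04) also fell past 8-fold.

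By absolute change in CPM, the gains were led by matrix and growth genes and the losses by ER chaperones and translation elongation factors. Thbs1, the matricellular protein thrombospondin, went from 4394, 2679 and 3545 CPM to 17831, 20282 and 21633 CPM (log2 fold change 2.49 ± 0.29, adjusted p = 1.2e-05). The growth-regulating RNA H19 went from 3089.9, 3036 and 3336 CPM to 11419, 10993 and 14656 CPM (log2 fold change 1.97 ± 0.16, adjusted p = 5.65e-07), and its imprinted neighbour Igf2, a fetal growth factor, from 1638, 2108 and 2276 CPM to 6400.1, 5664 and 8531 CPM (log2 fold change 1.77 ± 0.19, adjusted p = 5.17e-06). All 3 separated fully, but separation was a condition of the choice of these gains and of the losses that follow. Col1a1 (0.96 ± 0.16), Col3a1 (1.90 ± 0.23) and the collagen crosslinking enzyme Lox (1.17 ± 0.27) were the other large gains. The losses were Hspa5, Hsp90b1 and Calr, described next, the elongation factors Eef1a1 (-0.48 ± 0.11) and Eef2 (-0.48 ± 0.10), and Postn, the matrix protein periostin, at 2647, 3060.4 and 2761 CPM in control and 998, 1483 and 1061 CPM in KO (log2 fold change -1.26 ± 0.35, adjusted p = 0.00954).

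**Figure D2:**
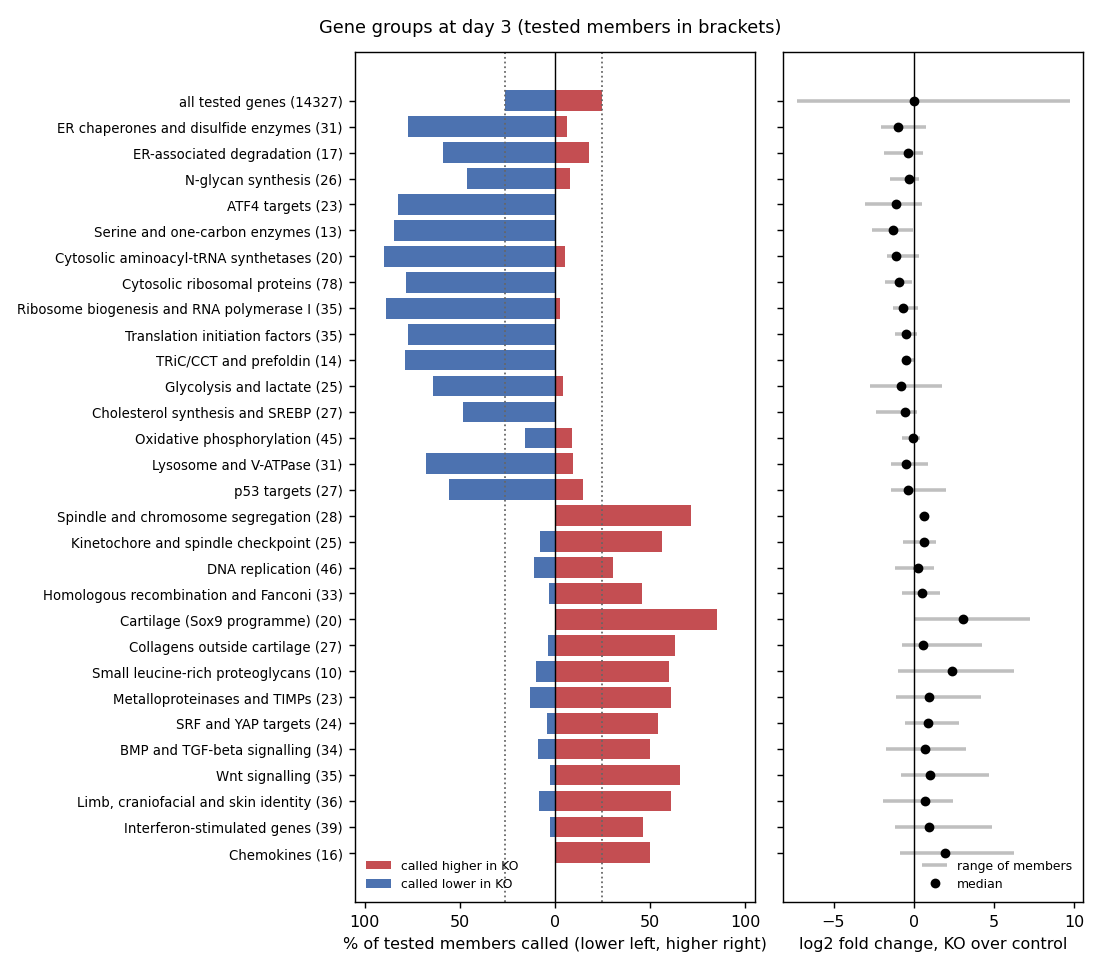
The left panel gives, for all tested genes and for each gene group named beside its bar, the percentage of tested members called higher (red) or lower (blue) in KO, with dotted lines at the values for all genes, and the right panel gives each group's median log2 fold change with the range over its members. Groups of folding, amino acid supply and translation lie on the lower side and cartilage, matrix, Wnt and chemokine groups on the higher side.

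The ER folding machinery was lower in KO almost throughout. Of 31 ER chaperones and disulfide-forming enzymes 24 fell and 2 rose (1 without KO replicate 4), with a median log2 fold change of -0.95, against 26.2% lower and a median of -0.004 over all genes. Their summed level was 29773, 29598 and 30347 CPM in control and 12374, 12168 and 11670.0 CPM in KO, 40.4% of control. These proteins fold secreted and membrane proteins and check their glycans, and cells set their level through the unfolded protein response (UPR), whose sensors act through the transcription factors Atf6, Xbp1 and Atf4.

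Hspa5, the ER Hsp70 known as BiP, was at 7249, 5365 and 6152 CPM in control and at 1710.2, 1725 and 1606 CPM in KO. The KO libraries were close to each other and lay far below all controls (log2 fold change -1.90 ± 0.12, adjusted p = 8.26e-08). Hsp90b1, the ER Hsp90 known as GRP94, was at 5396, 6035 and 6136 CPM against 1707, 1629 and 1499.8 CPM, again without overlap (log2 fold change -1.86 ± 0.10, adjusted p = 3.09e-08). The small cofactor Sdf2l1 went from 76.9, 73.4 and 78.2 CPM to 21.1, 22.5 and 27.8 CPM (log2 fold change -1.68 ± 0.10, adjusted p = 5.67e-08), Creld2, a disulfide isomerase-like protein, from 125, 118 and 134 CPM to 31.6, 23.5 and 32.3 CPM (log2 fold change -2.06 ± 0.14, adjusted p = 1.21e-07), and the secreted chaperone cofactor Manf from 334, 316 and 329 CPM to 107, 95.8 and 121 CPM (log2 fold change -1.59 ± 0.098, adjusted p = 6.58e-08). All 3 were tight within each group. The lectin chaperones Calr (-1.46 ± 0.11) and Canx (-0.85 ± 0.10), the disulfide isomerases Pdia4 (-1.73 ± 0.12) and Pdia6 (-1.31 ± 0.11), the cochaperone Dnajc3 (-0.75 ± 0.093) and the oxidase Ero1b (-0.96 ± 0.15) also fell.

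The promoters of the 4 chaperone genes with the smallest adjusted p for which a window could be matched are shown because the UPR acts on such genes through a short promoter element. Each window runs from 250 bases before to 50 bases after the RefSeq start of the gene (GRCm38.p6, which is mm10), written along the gene's own strand. Capitals mark the outer blocks of the ER stress element, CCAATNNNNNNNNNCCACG, searched on both strands. They are Hsp90b1 at chr10:86705395-86705694 (minus strand), Sdf2l1 at chr16:17132334-17132633 (minus), Hspa5 at chr2:34771840-34772139 (plus) and Creld2 at chr15:88819396-88819695 (plus).
Hsp90b1: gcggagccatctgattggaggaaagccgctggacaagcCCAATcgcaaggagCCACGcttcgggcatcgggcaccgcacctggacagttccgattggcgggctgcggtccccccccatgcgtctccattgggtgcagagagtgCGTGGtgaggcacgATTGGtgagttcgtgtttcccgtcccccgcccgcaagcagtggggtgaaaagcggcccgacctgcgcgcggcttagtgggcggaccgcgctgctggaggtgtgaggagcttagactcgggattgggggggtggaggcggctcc
Sdf2l1: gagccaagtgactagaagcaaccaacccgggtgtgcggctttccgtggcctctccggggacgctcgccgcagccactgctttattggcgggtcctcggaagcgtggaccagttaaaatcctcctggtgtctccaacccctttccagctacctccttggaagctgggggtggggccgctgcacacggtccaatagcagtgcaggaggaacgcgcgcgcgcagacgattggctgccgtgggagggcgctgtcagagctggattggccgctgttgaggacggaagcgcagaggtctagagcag
Hspa5: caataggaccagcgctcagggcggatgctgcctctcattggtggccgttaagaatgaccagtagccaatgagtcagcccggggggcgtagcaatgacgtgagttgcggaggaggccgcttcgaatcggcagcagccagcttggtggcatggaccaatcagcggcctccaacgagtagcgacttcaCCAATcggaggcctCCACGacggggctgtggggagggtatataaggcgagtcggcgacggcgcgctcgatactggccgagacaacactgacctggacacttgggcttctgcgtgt
Creld2: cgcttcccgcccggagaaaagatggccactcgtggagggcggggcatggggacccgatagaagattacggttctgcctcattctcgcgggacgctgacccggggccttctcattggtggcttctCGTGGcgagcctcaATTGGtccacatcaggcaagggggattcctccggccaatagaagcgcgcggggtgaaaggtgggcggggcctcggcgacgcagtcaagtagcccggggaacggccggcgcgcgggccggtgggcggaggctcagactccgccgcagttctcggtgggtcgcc

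Hsp90b1 held 2 copies of the element, beginning 212 and 107 bases before the start, Hspa5 held 1 at 65 bases and Creld2 held 1 at 126 bases, while the window of Sdf2l1 held none in these letters. A window was matched for 10994 of the tested genes. The element was in the windows of 18 of them (0.164%), and in 8 of the 26 ER chaperone genes with a window (30.8%). Of the 18 genes, 13 fell, none rose and 5 were not called. The 8 chaperone genes were Creld2, Hspa5, Hsp90b1, Calr, Pdia6, Ero1b, Canx and Dnajc3, all lower. The other 5 that fell were Derl3 (-5.17) and Syvn1 (-0.93) of ER-associated degradation, the glycosyltransferase Alg12 (-0.48), the imprinting factor Zfp57 (-1.90) and the RNA-binding Hnrnpa3 (-0.56, which lost its call without KO replicate 4, adjusted p = 0.0515). The 18 genes with the element had a median log2 fold change of -0.89, which repeats the fall of the chaperone list in part. Outside that list 5 of the 10 genes with the element fell, beside 26.2% of all genes. A match is a description of the letters and not of binding.

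The transducers of the UPR moved apart. Of 20 genes for UPR and integrated stress response signalling 8 fell and 4 rose (2 rose without KO replicate 2 or 4 or without control replicate 1 or 3), with a median of -0.13. Ddit3, the stress-induced factor CHOP, was at 278, 260.3 and 251 CPM in control and 61.4, 73.3 and 66.8 CPM in KO, fully separate (log2 fold change -1.98 ± 0.12, adjusted p = 5.67e-08). Ppp1r15a, the inducible phosphatase subunit GADD34, fell from 172, 152 and 144 CPM to 37.6, 45.1 and 33.8 CPM (log2 fold change -2.04 ± 0.11, adjusted p = 2.28e-08). The factors Xbp1 (-1.30 ± 0.11), Atf6 (-0.96 ± 0.072) and Atf4 (-0.86 ± 0.12) fell as well.

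Downstream steps of the secretory route were lower to a lesser degree. In ER-associated degradation, which clears misfolded proteins, 10 of 17 genes fell and 3 rose, with Herpud1 at -1.84 ± 0.13, Edem1 at -1.15 ± 0.078 and Sel1l at -1.01 ± 0.13. Of 22 translocon and signal peptidase genes 11 fell and none rose, with Spcs2 at -0.67 ± 0.075. The translocon subunit Sec61b, at 29, 34.1 and 32.8 CPM and 24.4, 24 and 26.6 CPM, was not called (adjusted p = 0.0557). Of 26 N-glycan genes 12 fell and 2 rose (1 or none with any library but KO replicate 3 left out), with the sugar-nucleotide enzyme Gnpnat1 at -1.46 ± 0.098, the ribophorin Rpn1 at -0.97 ± 0.093, the transferase subunit Stt3a at -0.51 ± 0.07 and Gfpt1 at -0.43 ± 0.10. Of 28 genes for vesicle coats and cargo return 12 fell and 1 rose, led by the retrieval receptor Kdelr3 (-0.82 ± 0.11). That is 46.4% called beside 50.9% of all genes. Under upper quartile scaling 7 fell and 6 rose, so the lean of this list depended on the scaling. The coat subunit Sec24d fell by little (-0.28 ± 0.10, adjusted p = 0.0283) and lost its call without KO replicate 3 or 4 or control replicate 1 (adjusted p up to 0.161).

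Amino acid supply and the charging of tRNAs were lower together. Atf4 is the transcription factor that turns on amino acid synthesis and transport when amino acids are short or the ER is stressed. Of 23 Atf4 target genes 19 fell and none rose (median -1.11), of 13 serine and one-carbon enzymes 11 fell and none rose (-1.28), and of 20 cytosolic aminoacyl-tRNA synthetases 18 fell and 1 rose (-1.13). Their summed CPM were 53.4%, 38.8% and 46.0% of control. The 3 lists hold no gene in common, although many serine enzymes and synthetases are themselves known Atf4 targets.

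Aldh1l2, a mitochondrial folate enzyme, was at 570.1, 457 and 552 CPM in control and 87.7, 86.9 and 84.6 CPM in KO, with KO libraries almost equal and far below control (log2 fold change -2.61 ± 0.097, adjusted p = 6.37e-10). Asns, asparagine synthetase, fell from 376, 319 and 320.5 CPM to 170.4, 125 and 119 CPM (log2 fold change -1.28 ± 0.13, adjusted p = 4.21e-06), and the pseudokinase Trib3 from 226, 233 and 214 CPM to 82.1, 73.7 and 68 CPM (log2 fold change -1.58 ± 0.22, adjusted p = 6.87e-05). Both separated fully. The transsulfuration enzyme Cth (-2.36 ± 0.14), the glutathione-degrading Chac1 (-2.0 ± 0.12), the serine enzymes Psph (-2.05 ± 0.13) and Phgdh (-1.42 ± 0.19), and Mthfd2 of mitochondrial folate metabolism (-1.59 ± 0.14) fell too. Among the synthetases, Sars (-1.52 ± 0.084), Wars (-1.69 ± 0.10), Gars (-1.37 ± 0.12) and Nars (-1.28 ± 0.12) fell by more than 2-fold. Slc7a11, the cystine transporter and a classic Atf4 target, went the other way without a call: it was at 46.3, 48.2 and 54.9 CPM in control and 45.2, 70.4 and 104 CPM in KO, overlapping at KO replicate 2 (log2 fold change 0.54 ± 0.25, adjusted p = 0.0828).

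The element Atf4 binds, searched as TGATGCAA on both strands, was in the promoter windows of 0.719% of all genes, 0.512% of those called higher and 1.19% of those called lower. It was in 4 of the 19 Atf4 targets with a window (21.1%). These were Chac1, Vldlr (-0.57) and Slc1a4 (-0.49), all lower, and Slc7a11, which was not called.

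**Figure D3:**
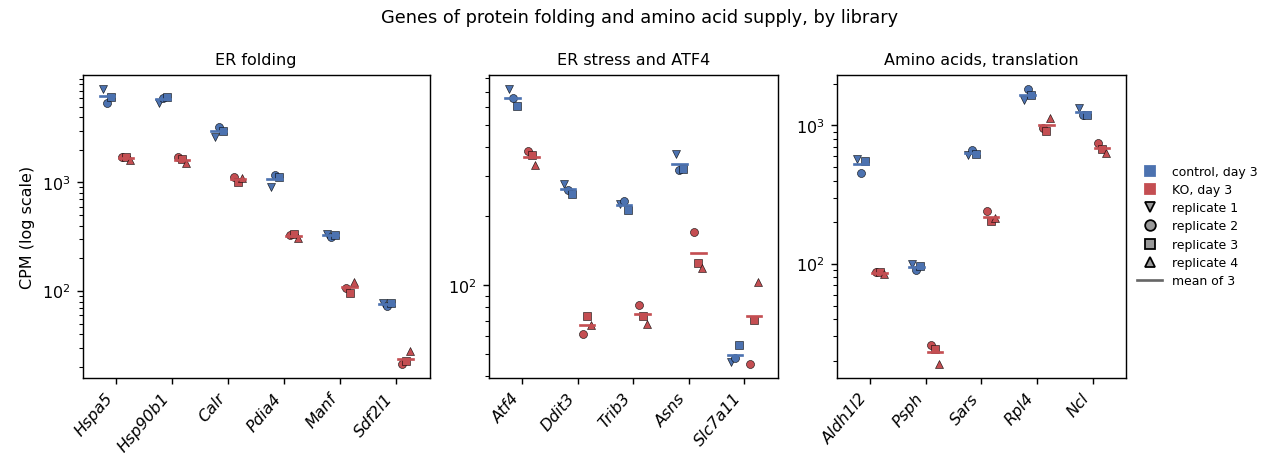
CPM on a log axis for ER chaperones, stress response genes and genes of amino acid supply and protein synthesis, one point per library (control blue, KO red) and a bar at the mean of 3. Every gene shown separates without overlap, lower in KO, apart from Slc7a11, whose KO libraries spread from 45.2 to 104 CPM.

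Genes of protein synthesis were lower. Of 78 cytosolic ribosomal protein genes 61 fell and none rose, and all 78 had a negative log2 fold change (77 under upper quartile scaling), with a median of -0.94. The summed level was 10819, 15403 and 13794 CPM in control and 6972, 6651 and 9811 CPM in KO, 58.6% of control, with KO replicate 4 the highest of its group. The number that fell was 39 without KO replicate 2. Ribosomal protein genes have many near-identical copies in the genome and the sources used here do not state how reads matching several places were treated, so values of single genes are uncertain. Rpl4 went from 1525, 1832 and 1661 CPM to 964, 919.6 and 1135 CPM (log2 fold change -0.73 ± 0.098, adjusted p = 3.46e-05), without overlap. Rpl10a (-1.06 ± 0.11) and Rps6 (-0.56 ± 0.12) fell. Rplp0 fell the least of those named (-0.33 ± 0.12, adjusted p = 0.0372) and lost its call without KO replicate 2 or 3 or control replicate 2 or 3 (adjusted p up to 0.161).

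Genes of ribosome assembly and initiation were lower as well. Of 35 genes of ribosome biogenesis and RNA polymerase I 31 fell and 1 rose (median -0.69), among them the nucleolar proteins Ncl, at 1343, 1193 and 1191 CPM against 747, 681 and 634 CPM (log2 fold change -0.85 ± 0.14, adjusted p = 0.000198), Gnl3 (-1.32 ± 0.12) and Nop14 (-0.97 ± 0.098), and the polymerase subunit Polr1b (-0.64 ± 0.12). Of 35 translation initiation factors 27 fell and none rose, led by Eif2s2 (-1.15 ± 0.079), with Eif4b at -0.92 ± 0.068 and the helicase Eif4a1 at -1.09 ± 0.14. Mitochondrial ribosomal proteins were mixed, with 10 higher and 19 lower of 77 and a median of -0.075. In the cytosolic chaperonin TRiC and prefoldin 11 of 14 fell, including Cct2 (-0.69 ± 0.098), and of 18 cytosolic and mitochondrial heat shock proteins 7 fell and 2 rose (1 without KO replicate 4 or control replicate 3), with the constitutive Hsp70 Hspa8 at -1.06 ± 0.11 and the mitochondrial chaperonin Hspd1 at -1.28 ± 0.14. The small heat shock protein Hspb1 was at 51.6, 54.2 and 46.5 CPM and 64.4, 36.2 and 35.8 CPM and was not called. Of 31 proteasome subunits 11 fell and none rose, 35.5% called beside 50.9% of all genes. Under upper quartile scaling 7 of them fell and 2 rose.

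Myc, a driver of ribosome and growth genes for which Tip60 is a coactivator, was at 146, 137 and 129 CPM in control and 119, 111 and 102 CPM in KO. The groups did not overlap but the difference missed the threshold (log2 fold change -0.31 ± 0.13, adjusted p = 0.0531). In the network of Myc partners and antagonists 3 of 12 rose and 4 fell. The antagonists Mnt (-1.08 ± 0.096) and Mxi1 (-1.02 ± 0.12) fell and Mxd1 (0.77 ± 0.13) and Mxd4 (0.92 ± 0.28) rose. Mxd4 lost its call without KO replicate 4 or control replicate 1 or 2 (adjusted p up to 0.0963). The E-box CACGTG, which Myc and related factors bind, was in 11.6% of all promoter windows, 7.9% of those of raised genes and 16.4% of those of lowered genes.

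Genes of glycolysis were lower, and fewer genes of respiration were called. Of 25 genes for glycolysis and lactate 16 fell and 1 rose, with a median of -0.81 and a summed level of 56.5% of control. Slc16a3, the lactate exporter, fell from 556, 536 and 521 CPM to 182, 161 and 144 CPM (log2 fold change -1.72 ± 0.16, adjusted p = 2.27e-06) and Aldoc, an aldolase, from 47.7, 57 and 46 CPM to 7.44, 7.04 and 8.15 CPM (log2 fold change -2.72 ± 0.23, adjusted p = 6.46e-07). Neither overlapped. Pgk1 (-1.47 ± 0.16), the glucose transporter Slc2a1 (-0.91 ± 0.25) and Ldha, which makes lactate (-0.55 ± 0.13), fell. The 1 that rose was Ldhb, the lactate dehydrogenase subunit of oxidative tissues, from 10.8, 11.4 and 11.7 CPM to 42.8, 36.6 and 35.8 CPM (log2 fold change 1.78 ± 0.12, adjusted p = 1.21e-07).

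Of 45 subunits of oxidative phosphorylation 4 rose and 7 fell, 24.4% called against 50.9% of all genes. Under upper quartile scaling the balance turned, with 11 higher and 3 lower. The counts that follow are under the scaling used throughout. Those that rose numbered 2 without KO replicate 2 or 4 or control replicate 3 and 7 without KO replicate 3, and those that fell numbered 3 without KO replicate 3 and 4 without control replicate 2 or 3. Sdha of succinate dehydrogenase rose (0.35 ± 0.071, adjusted p = 0.000988). Cox4i1 of cytochrome oxidase fell (-0.29 ± 0.096, adjusted p = 0.0222) but not without KO replicate 2 or 3 or control replicate 2 or 3 (adjusted p up to 0.108).

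Glycolytic genes are also targets of the hypoxia-inducible factors, and the cells were kept at low oxygen. Of 19 other hypoxia genes 7 fell and 4 rose, with a median of -0.46. The mRNAs of the factors themselves rose, and Epas1 is counted among those 4. Hif1a mRNA went from 261, 216 and 253 CPM to 590.3, 787 and 759 CPM (log2 fold change 1.55 ± 0.21, adjusted p = 6.62e-05) and Epas1, its relative HIF-2 alpha, from 11.5, 7.94 and 9.05 CPM to 44.3, 42.3 and 62.5 CPM (log2 fold change 2.41 ± 0.23, adjusted p = 2.86e-06), both without overlap. Vegfa, the angiogenic growth factor (-1.06 ± 0.15), and the collagen hydroxylase P4ha1 (-0.92 ± 0.076) fell. Egln3, an oxygen sensor, was at 500.2, 361 and 406 CPM in control and 269, 216 and 203 CPM in KO and narrowly missed the threshold (adjusted p = 0.0542). The core hypoxia motif ACGTG was in 28.8% of all windows, 22.4% of those of raised genes and 35.6% of those of lowered genes. It lies wholly within the E-box CACGTG, so every window with an E-box is counted here too. These shares therefore repeat those of the E-box in part and are not a separate result.

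Cholesterol synthesis and uptake genes leaned lower: 13 of 27 fell, none rose and the median was -0.52. Fdps, of the isoprenoid route, fell from 102, 167 and 129 CPM to 53.8, 43.2 and 44.2 CPM (log2 fold change -1.48 ± 0.24, adjusted p = 0.00032). Hmgcs1, an early step, was at 481, 572 and 492 CPM and 499.9, 486 and 384 CPM, overlapping and not called (adjusted p = 0.619). Lysosomal genes also leaned lower. Of 31 genes 21 fell and 3 rose (median -0.49), with the cholesterol exporter Npc1 at 161, 163 and 173 CPM and 70.2, 71.4 and 73.2 CPM (log2 fold change -1.21 ± 0.08, adjusted p = 1.21e-07) and the protease Ctsl at -1.04 ± 0.12. Ctsd, another major lysosomal protease, was at 1188, 1511 and 1246 CPM and 1137, 1278 and 1455 CPM and was not called. In autophagy 6 of 25 fell and 4 rose (2 without KO replicate 4), among them the receptor Sqstm1 (-0.92 ± 0.11) and Gabarap (-0.95 ± 0.11) lower and the initiating kinase Ulk1 higher (0.35 ± 0.098, not called without KO replicate 4, adjusted p = 0.0518).

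Most genes of the spindle and kinetochore were higher in KO at this time point, but the number called depended on single libraries. Most genes of mitotic entry and exit and of DNA replication were not called. Tip60 is known in repair and in spindle function, and these lists cover the proteins that copy, mend and separate chromosomes. Of 28 spindle and chromosome segregation genes 20 rose and none fell, and all 28 had a positive log2 fold change (median 0.61). Without KO replicate 2, the deepest KO library and the female one, 5 rose. It was 11 without control replicate 2 and 12 without control replicate 3. Of 25 kinetochore and checkpoint genes 14 rose and 2 fell (6 rose without KO replicate 2 and 9 without control replicate 2 or 3). Of 22 genes of mitotic entry and exit 7 rose and 2 fell, 40.9% called beside 50.9% of all genes. Without KO replicate 2, 1 rose and 5 fell, so the balance turned to lower. Without control replicate 2 or 3, 3 rose and 1 fell, and 1 fell without KO replicate 3 or 4.

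Top2a, the mitotic topoisomerase, was at 126, 83.2 and 88.6 CPM in control and 207, 137 and 118 CPM in KO. KO replicate 2 was the highest, and KO replicate 4 lay below control replicate 1 (log2 fold change 0.64 ± 0.23, adjusted p = 0.0339). Its call was lost without KO replicate 2 or control replicate 2 or 3 (adjusted p up to 0.203). Plk1, the mitotic kinase, was at 9.59, 10.0 and 7.93 CPM and 19.7, 15 and 14.4 CPM, without overlap (log2 fold change 0.88 ± 0.16, adjusted p = 0.000387), and Cdc20, activator of the anaphase-promoting complex, at 19.2, 12.4 and 11.1 CPM and 31.8, 24 and 23 CPM (log2 fold change 0.93 ± 0.19, adjusted p = 0.00117). Nuf2 (1.37 ± 0.20) and Mad2l1 (0.94 ± 0.14) of the kinetochore, Ect2 of cytokinesis (0.82 ± 0.16) and Incenp of the chromosomal passenger complex (0.64 ± 0.13) rose, and the kinetochore protein Zwint fell (-0.66 ± 0.091).

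Other proliferation markers depended more on single libraries. Kif11, the spindle motor (0.83 ± 0.23), lost its call without KO replicate 2 (adjusted p = 0.0827), and Mki67 (0.55 ± 0.18) and Cenpf (0.63 ± 0.20) without KO replicate 2 or control replicate 2 or 3 (adjusted p up to 0.104 and 0.124). Aurka was at 14, 12.7 and 14.6 CPM and 21.6, 14.6 and 14.5 CPM, Ccnb1, cyclin B1, at 12.4, 11.7 and 13.2 CPM and 22.5, 10.3 and 12.1 CPM, and Bub1 at 30.9, 18.5 and 20.3 CPM and 47.3, 38.5 and 22.5 CPM. None of these 3 was called (adjusted p = 0.196, 0.186 and 0.0778), and in each only KO replicate 2 stood clearly above the controls, with KO replicate 3 also high for Bub1. The cell cycle element TTTGAA was in 14.2% of all promoter windows, 15.8% of those of raised genes and 13.1% of those of lowered genes.

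**Figure D4:**
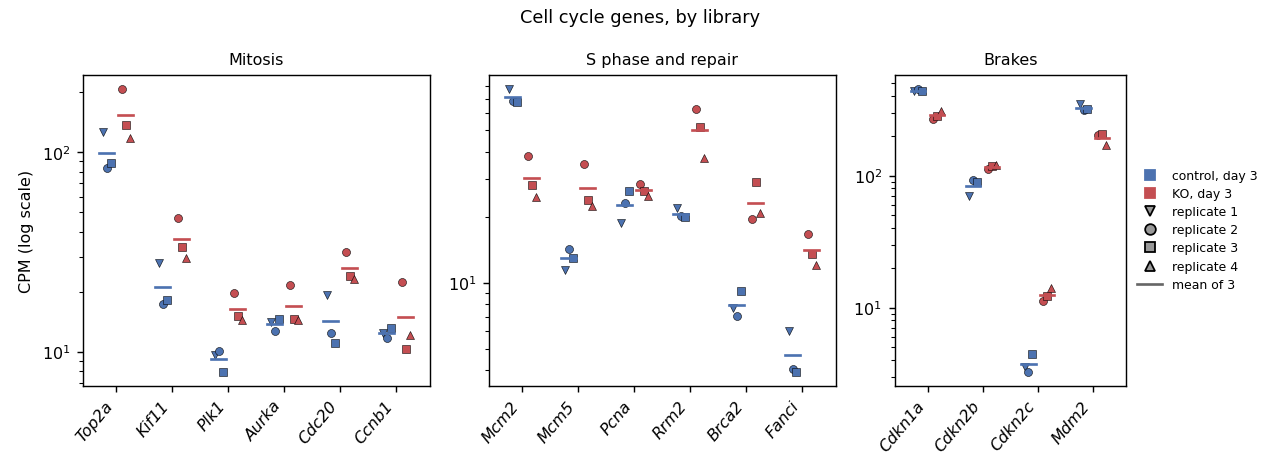
CPM on a log axis for mitotic genes, replication and recombination genes, and cell cycle inhibitors, one point per library (control blue, KO red) and a bar at the mean of 3. KO replicate 2 has the highest value of the 6 libraries for Top2a, Kif11, Plk1, Aurka, Cdc20 and Ccnb1, while Mcm2, Cdkn1a and Mdm2 lie lower in KO.

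In DNA replication 14 of 46 genes rose and 5 fell, 41.3% called beside 50.9% of all genes (median 0.28). Without KO replicate 2 there were 5 that rose, and 3 fell without KO replicate 2 or 3 or control replicate 1. The subunits of the replicative helicase parted. Mcm5 went from 11.5, 14.3 and 13.1 CPM to 35, 24 and 22.5 CPM (log2 fold change 1.11 ± 0.21, adjusted p = 0.000687), while Mcm2 went from 77.1, 68.1 and 67.2 CPM to 38.3, 28.2 and 24.8 CPM (log2 fold change -1.19 ± 0.18, adjusted p = 0.000112), both without overlap. Rrm2, which makes deoxynucleotides, rose from 22, 20.2 and 20.2 CPM to 62.4, 51.7 and 37.2 CPM (log2 fold change 1.29 ± 0.18, adjusted p = 5.22e-05). The sliding clamp Pcna was at 18.8, 23.4 and 26.4 CPM and 28.4, 26.3 and 25.1 CPM and was not called. Of 22 tested replication-dependent histone genes 11 rose and none fell (median 1.17), for example H2bc4 (1.08 ± 0.20). The libraries were selected for poly(A), which most of these mRNAs lack, and the genes are near copies of each other, so these values are uncertain.

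Homologous recombination and Fanconi genes leaned higher. Of 33 genes 15 rose and 1 fell (11 rose without KO replicate 2), with a median of 0.52. That is 48.5% called beside 50.9% of all genes, and 28 had a positive log2 fold change. Brca2 went from 7.65, 7.09 and 9.15 CPM to 19.7, 29.1 and 21 CPM (log2 fold change 1.48 ± 0.17, adjusted p = 8.37e-06), Fanci from 6.05, 4.05 and 3.92 CPM to 16.8, 13.6 and 12.1 CPM (log2 fold change 1.65 ± 0.24, adjusted p = 8.11e-05) and Fancm from 11.3, 9.11 and 11.2 CPM to 22.7, 18.8 and 23.6 CPM (log2 fold change 1.08 ± 0.11, adjusted p = 2.82e-06), none overlapping. Brca1 rose too (1.0 ± 0.19). Of the kinases upstream, Atm, a known Tip60 substrate, was at 67.8, 69.4 and 72.3 CPM and 62.5, 65.3 and 94.1 CPM and Chek1 at 11.2, 8.96 and 8.77 CPM and 11.7, 7.98 and 6.14 CPM, neither called, while Chek2 fell (-0.79 ± 0.13) and the checkpoint mediator Clspn rose (1.05 ± 0.19). Of 19 genes of ATM and ATR signalling 5 rose and 2 fell, 36.8% called.

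Among regulators of entry into the cycle, 10 of 21 rose and 3 fell. Ccnd1, cyclin D1, rose from 296, 355 and 319 CPM to 466, 459 and 521 CPM (log2 fold change 0.58 ± 0.10, adjusted p = 0.00041) and its kinase Cdk4 fell from 381, 399 and 389 CPM to 249.9, 222 and 231 CPM (log2 fold change -0.73 ± 0.077, adjusted p = 4.32e-06), each without overlap. E2f1 was at 25.5, 27.8 and 26.1 CPM and 27.5, 29.1 and 23.2 CPM (not called). The CDK inhibitors differed: Cdkn1a, p21, fell from 435, 449 and 434 CPM to 267, 282 and 310.2 CPM (log2 fold change -0.62 ± 0.082, adjusted p = 3.48e-05), Cdkn2c, p18, rose from 3.54, 3.27 and 4.48 CPM to 11.2, 12.2 and 14 CPM (log2 fold change 1.73 ± 0.19, adjusted p = 6.01e-06) and Cdkn2b, p15, rose (0.47 ± 0.10). The groups did not overlap for any of the 3.

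Targets of p53, for which Tip60 is also a coactivator, were mainly lower, with 15 of 27 falling and 4 rising (median -0.35). Besides Cdkn1a, the p53 inhibitor Mdm2 fell from 350.0, 311 and 321 CPM to 203, 207 and 169 CPM (log2 fold change -0.77 ± 0.13, adjusted p = 0.000292) and Gadd45a from 116, 100.2 and 112 CPM to 39.5, 44.1 and 38.4 CPM (log2 fold change -1.44 ± 0.099, adjusted p = 1.27e-07), neither overlapping. Gadd45a is an Atf4 target as well. Apaf1 of the apoptosome fell (-0.84 ± 0.094). Btg2 fell (-0.36 ± 0.12, not called without KO replicate 3 or control replicate 1 or 3, adjusted p up to 0.0738), Ccng1 was not called (0.05 ± 0.15, adjusted p = 0.801), and the death receptor Fas rose (1.98 ± 0.22). In the BCL2 family of apoptosis regulators the protective Bcl2l1 (-0.88 ± 0.10) and the activator Bid (-0.57 ± 0.12) fell and the activator Bcl2l11, BIM, rose (1.08 ± 0.17). Of its 11 tested genes 2 rose and 6 fell.

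Skeletal matrix genes were higher in KO, several from near 0. Sox9 is the master factor of cartilage and switches on its collagens and linker proteins. Of the 25 genes of this programme 20 passed the filter on low counts and 17 of them rose, with none lower. Many of these were near 0 in control and passed the filter through KO, so the count is a description and not a share of all 25. Their summed level was 396, 282 and 489 CPM in control and 3521, 3533 and 4143 CPM in KO.

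Comp, a cartilage and tendon matrix protein, went from 0.685, 1.01 and 1.31 CPM to 54.6, 78.9 and 129 CPM, with every KO library far above control and KO replicate 4 highest (log2 fold change 6.42 ± 1.52, adjusted p = 0.00437). The fibrillar collagen Col11a1 went from 217, 165 and 268 CPM to 979.9, 1084 and 1228 CPM (log2 fold change 2.34 ± 0.41, adjusted p = 0.000559) and the linker Matn3 from 0.571, 0.623 and 0.373 CPM to 12.7, 12.2 and 9.06 CPM (log2 fold change 4.40 ± 0.42, adjusted p = 2.23e-06). Col9a1, at 0.0779 to 0.457 CPM in control and 2.82 to 5.74 CPM in KO, rose (4.22 ± 0.66). Sox9 itself rose by much less, from 46.5, 45.4 and 49.5 CPM to 54.7, 68.1 and 69.1 CPM (log2 fold change 0.43 ± 0.11, adjusted p = 0.00377), without overlap. Matn4 stayed low in both groups, at 0.467 to 0.623 and 0.939 to 1.91 CPM (1.37 ± 0.40, not called without KO replicate 4, adjusted p = 0.0523).

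Bone and hypertrophic cartilage genes rose in 9 of 11 tested (of 16 listed), again a description, since some passed the filter only through KO. Mmp13, a collagenase of bone and cartilage, went from 4.68, 4.83 and 4.11 CPM to 35.1, 108 and 109 CPM (log2 fold change 4.17 ± 0.56, adjusted p = 9.82e-05), lowest in KO replicate 2. Alpl, bone alkaline phosphatase, had no counts in control and 156 in KO, at least 33-fold higher against a floor of 3 counts over the group. The osteoblast factor Sp7 had 3 counts in control and 116 in KO, or 24.6 times the control level (95% counting interval 8.2 to 121). Runx2, the upstream bone factor, rose by little (0.29 ± 0.099, not called without KO replicate 2 or 4 or control replicate 1, adjusted p up to 0.069). In the tendon list 4 of 10 rose: Tnmd, tenomodulin, from 19.9, 11 and 18 CPM to 83, 126 and 109.6 CPM (log2 fold change 2.70 ± 0.44, adjusted p = 0.000406), Mkx, a tendon transcription factor (1.32 ± 0.24), Fmod, fibromodulin, from 18, 13.8 and 18.9 CPM to 112, 179 and 289 CPM (log2 fold change 3.52 ± 0.97, adjusted p = 0.0102), and Thbs2, a thrombospondin (0.48 ± 0.18, adjusted p = 0.0427; named after its value was seen, and not called without any library but KO replicate 2, adjusted p up to 0.125). Scx (0.84 ± 0.41, adjusted p = 0.105) and Thbs4 (2.01 ± 1.15, adjusted p = 0.161) were not called.

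The general matrix was mainly higher too. Of 27 collagens outside cartilage 17 rose and 1 fell (median 0.57). Col3a1 went from 1239, 783 and 1095 CPM to 2517, 4623 and 4486 CPM (log2 fold change 1.90 ± 0.23, adjusted p = 2.03e-05), Col8a2 from 8.9, 7.32 and 10.7 CPM to 113, 187 and 224 CPM (log2 fold change 4.28 ± 0.58, adjusted p = 0.000104) and Col14a1 from 32, 22.5 and 27 CPM to 138, 108 and 165 CPM (log2 fold change 2.35 ± 0.46, adjusted p = 0.00123). All 3 separated fully. The basement membrane collagen Col4a1 rose least (0.49 ± 0.19) and lost its call without KO replicate 2 or 3 or control replicate 2 or 3 (adjusted p up to 0.182). Among small leucine-rich proteoglycans, which order collagen fibrils, 6 of 10 rose and 1 fell, with Ogn from 34.6, 28.1 and 46.3 CPM to 331, 399.7 and 456 CPM (log2 fold change 3.45 ± 0.63, adjusted p = 0.000832), Omd from 0.571, 0.623 and 0.373 CPM to 31.2, 39.9 and 52.3 CPM (log2 fold change 6.26 ± 0.89, adjusted p = 0.000146) and Lum (3.03 ± 0.49). Dcn, decorin, was at 60.7, 47 and 43.8 CPM and 76.9, 113 and 97.6 CPM, without overlap but not called (adjusted p = 0.0985).

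Of 28 basement membrane and elastic fibre genes 11 rose and 4 fell. Emilin1 (2.15 ± 0.19), Nid2 (2.89 ± 0.40) and elastin, Eln (2.92 ± 0.55, highest in KO replicate 2), rose, and the laminin Lama2 fell (-1.40 ± 0.19). Fibronectin, Fn1, was at 14679.9, 13640.1 and 14766 CPM and 15901, 17697 and 24206 CPM and was not called. Matrix crosslinking and processing genes were split, with 7 of 19 higher and 5 lower (3 lower without KO replicate 3 or 4 or control replicate 1 or 3). Loxl1 (0.74 ± 0.097) and Lox rose, P3h2 fell, and the collagen chaperone Serpinh1 fell (-0.34 ± 0.10, not called without KO replicate 3, adjusted p = 0.0502).

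Of 23 metalloproteinases and their TIMP inhibitors 14 rose and 3 fell (9 rose without KO replicate 4 or control replicate 2). Timp2 went from 945, 1193 and 1177 CPM to 3209, 4031 and 4543 CPM (log2 fold change 1.83 ± 0.24, adjusted p = 3.79e-05), Adamts15 rose (3.15 ± 0.32) and Mmp11 fell (-1.09 ± 0.11). The gelatinase Mmp2 (1.08 ± 0.37) lost its call without KO replicate 4 or control replicate 1 or 2 (adjusted p up to 0.0946). The stromelysin Mmp3, at 1.37, 2.65 and 1.87 CPM and 2.06, 19.7 and 29.9 CPM, was high in KO replicates 3 and 4 alone and lost its call without any library but KO replicate 2 (adjusted p up to 0.2).

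**Figure D5:**
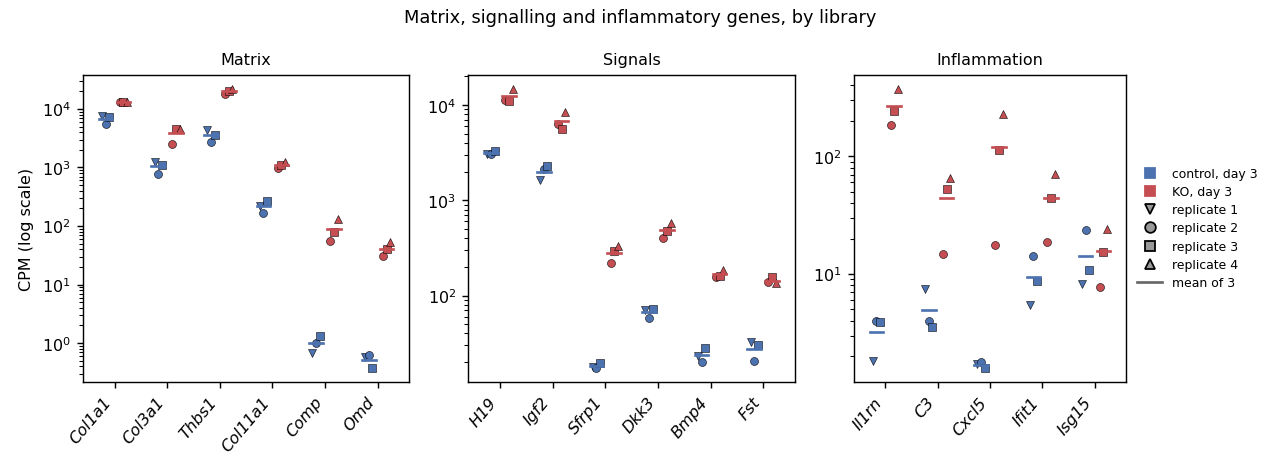
CPM on a log axis for matrix and skeletal genes, growth and signalling genes, and inflammatory genes, one point per library (control blue, KO red) and a bar at the mean of 3. Matrix and signalling genes separate without overlap, while Cxcl5, C3 and Ifit1 spread widely among KO libraries and Isg15 overlaps.

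Contractile genes were higher as well. Of 24 targets of the SRF and YAP coactivators, which read actin tension, 13 rose and 1 fell (median 0.88). The muscle-type actin Acta2 went from 3676, 1796 and 2183 CPM to 6181, 4725 and 4462 CPM (log2 fold change 1.01 ± 0.22, adjusted p = 0.00146), tropomyosin Tpm1 from 1105, 719.6 and 745 CPM to 3235, 2383 and 1918 CPM (log2 fold change 1.55 ± 0.18, adjusted p = 1.28e-05) and the matricellular factor Ccn2 from 1250.0, 671 and 819.5 CPM to 2688, 2058 and 1656 CPM (log2 fold change 1.22 ± 0.32, adjusted p = 0.00648). The groups did not overlap, with control replicate 1 the highest control in each. Amotl2 rose (1.10 ± 0.15), whereas Ankrd1, another YAP target, was at 180.4, 102 and 107 CPM and 154, 97.2 and 53.5 CPM and was not called.

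BMP, Wnt and IGF signalling genes were mainly higher where called. BMPs are bone-inducing ligands that act through Smads and the Id genes. Of 34 BMP and TGF-beta genes 17 rose and 3 fell (median 0.70). The ligand Bmp4 went from 23.3, 19.9 and 28.5 CPM to 157, 159 and 185 CPM (log2 fold change 2.81 ± 0.61, adjusted p = 0.00249), its antagonist Grem1 was at 308, 348 and 329 CPM and 282, 502 and 408 CPM and was not called, and the activin inhibitor Fst went from 32.2, 20.4 and 30.4 CPM to 140.5, 155 and 135 CPM (log2 fold change 2.37 ± 0.15, adjusted p = 5.81e-08). Bmp4 and Fst separated fully. The targets Id1 (1.61 ± 0.22), Id2 (1.55 ± 0.15) and Id3 (1.92 ± 0.22) rose.

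Of 35 Wnt genes 23 rose and 1 fell, with a median of 1.03. Those with the smallest adjusted p encode secreted modulators and a receptor. Sfrp1, which binds Wnt ligands, went from 17.9, 17.3 and 19.4 CPM to 217, 293 and 331 CPM (log2 fold change 3.94 ± 0.18, adjusted p = 6.55e-09), Dkk3 from 71, 57.9 and 72.8 CPM to 401, 472 and 580.4 CPM (log2 fold change 2.85 ± 0.27, adjusted p = 4.12e-06) and the receptor Fzd1 from 104, 93 and 118 CPM to 341, 403 and 403 CPM (log2 fold change 1.86 ± 0.15, adjusted p = 4.25e-07). None overlapped. The inhibitors Sfrp2 (3.76 ± 0.68) and Wif1 (4.71 ± 0.58) and Axin2, a target that marks canonical Wnt activity (2.33 ± 0.34), rose too.

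In the IGF axis 6 of 12 rose and none fell, 50% called beside 50.9% of all genes. Those that rose included Igf2, Igf1 (1.56 ± 0.17) and the binding protein Igfbp5 (2.09 ± 0.21). Igfbp3 (0.98 ± 0.38, adjusted p = 0.0481) lost its call whichever library was left out (adjusted p up to 0.138). Imprinted growth genes, which are expressed from 1 parental copy and tend to act together in the embryo, rose in 11 of 19 and fell in 4 (2 without KO replicate 4 or control replicate 3). Zim1 went from 2.17, 2.73 and 2.71 CPM to 19.6, 22.5 and 27.4 CPM (log2 fold change 3.17 ± 0.22, adjusted p = 1.36e-07), its neighbour Peg3 from 46.6, 57.6 and 55.8 CPM to 238, 257 and 297 CPM (log2 fold change 2.31 ± 0.18, adjusted p = 5.75e-07) and Dlk1 from 89.6, 129 and 145 CPM to 227, 267 and 249 CPM (log2 fold change 1.03 ± 0.16, adjusted p = 0.000139). All were fully separate between groups.

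Positional and lineage factors shifted in part. Of 36 limb, craniofacial and skin identity genes 22 rose and 3 fell (1 without KO replicate 4), with the mesenchymal factors Prrx1 (1.01 ± 0.16) and Prrx2 (2.20 ± 0.24), Foxc2 (1.46 ± 0.18) and the hindlimb factor Pitx1 (1.44 ± 0.30) higher. The forelimb factor Tbx5 was not called (0.55 ± 0.27, adjusted p = 0.0999). Of 35 Hox genes 11 rose and 3 fell (1 fell without KO replicate 4 or control replicate 2), 40% called beside 50.9% of all genes. Hoxa2 (1.89 ± 0.34), Hoxa3 (1.50 ± 0.29) and Hoxa6 (2.10 ± 0.43) were among those higher. Such genes record where in the body a fibroblast came from, and the sources used here do not state which parts of the embryo each culture grew from.

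Several inflammatory genes were higher in KO and spread widely among the 3 KO libraries. Cxcl5, a neutrophil chemokine, went from 1.71, 1.79 and 1.59 CPM in control to 17.5, 114 and 229 CPM in KO (log2 fold change 6.12 ± 1.56, adjusted p = 0.00659), and the call was lost in limma-voom with the embryo as a random block (adjusted p = 0.239). KO replicate 2 was the lowest and replicate 4 the highest, and the same order held for Cxcl10 (7.31, 12.2 and 15.9 CPM) and C3 (14.7, 52.6 and 64.9 CPM). The 5 genes with the widest spread within KO, at 20 CPM or more, were Cxcl5, C3, the secreted Pi15 (13.5, 48.8 and 57.4 CPM) and 2 without a symbol.

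Of 16 chemokines 8 rose and none fell. Cxcl12, the stromal chemokine, rose from 443, 462 and 546 CPM to 1162, 1271 and 1647 CPM (log2 fold change 1.49 ± 0.33, adjusted p = 0.00241), Cx3cl1 from 8.33, 6.62 and 8.77 CPM to 33.1, 27.7 and 41.9 CPM (log2 fold change 2.15 ± 0.30, adjusted p = 8.6e-05) and Cxcl10, whose control libraries were at 0.747 to 1.71 CPM, also rose (3.27 ± 0.57). Their groups did not overlap. Ccl2 (1.58 ± 0.83, adjusted p = 0.131) and Cxcl1 (3.18 ± 1.29, adjusted p = 0.0572) were not called. Of 15 genes of the IL-6 family 8 rose and none fell, including Il6 (2.85 ± 0.75, adjusted p = 0.0881 with the embryo block), the shared receptor Il6st (1.53 ± 0.24), Stat3 (0.48 ± 0.11) and the feedback inhibitor Socs3 (1.91 ± 0.33). Of 16 complement genes 8 rose and 3 fell (1 fell without KO replicate 4), with C3, at 3.55 to 7.42 CPM in control (3.12 ± 0.76, adjusted p = 0.063 with the embryo block), C4b (4.87 ± 0.84), the inhibitor Serping1 (1.53 ± 0.37) and C1qtnf1 (4.09 ± 0.48).

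Of 39 interferon-stimulated genes 18 rose and 1 fell, but 5 rose without KO replicate 4 and 10 without control replicate 1. Ifitm1, an antiviral membrane protein, went from 1.26, 0.623 and 1.77 CPM to 22.2, 27.2 and 55.3 CPM (log2 fold change 4.88 ± 0.49, adjusted p = 7.45e-06) and Tap1, a peptide transporter, from 10.4, 13.6 and 12.9 CPM to 18.5, 23 and 32.4 CPM (log2 fold change 0.99 ± 0.21, adjusted p = 0.00167), neither overlapping. Ifit1 was at 5.48, 14.1 and 8.77 CPM and 18.6, 44.1 and 70.1 CPM (log2 fold change 2.18 ± 0.66, adjusted p = 0.0162) and lost its call without KO replicate 4 or control replicate 1 (adjusted p up to 0.103) and with the embryo block (adjusted p = 0.071). Isg15 was at 8.22, 23.8 and 10.9 CPM and 7.81, 15.5 and 24 CPM and was not called (adjusted p = 0.921). Sex, litter and depth differ along the same lines among the KO libraries, and their part in these values was not tested.

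Markers of other cell types were measured beside these groups. In bulk RNA, fewer cells of a type and less RNA per cell cannot be told apart. Fibroblast markers summed to 18526 to 22792 CPM in control and 31378 to 34176 CPM in KO, with 7 of 14 higher and none lower. Macrophage markers, which bear on the chemokine and complement genes, summed to 94.1 to 133 CPM in control and 60.5 to 88.2 CPM in KO, with 6 of 11 lower (3 without KO replicate 2 or control replicate 2) and none higher, and Aif1 had at most 1 count in a library. Pericyte and smooth muscle markers, some shared with the contractile list, were higher in KO (8 of 10), at 2361 to 4559.5 and 5585 to 7650.1 CPM. Endothelial markers summed to 85.2 to 108 and 51.8 to 68.8 CPM, with no count of Tie1 in any library. Epithelial markers summed to 131 to 209 and 49.1 to 88.3 CPM, with at most 1 count of Krt5. Flt1 and Krt19 had the most counts in these lists, so the sums mostly follow them. Single members went both ways, with 2 higher and 1 lower of 8 endothelial markers and 2 higher and 1 lower of 6 epithelial markers. The epithelial factor Trp63 had 1 count over the controls and 191 over KO. Neural markers summed to 207 to 306 and 342 to 456 CPM, with 1 higher and 1 lower of 9. The sums of skeletal muscle markers overlapped (218 to 439.7 and 246 to 445 CPM), with 4 of 6 markers higher and none lower. No erythroid, liver or embryonic stem cell marker passed the filter. The part of such cells in the matrix and contractile results was not tested.

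Several of these differences had another size 2 days later. The KO effect differed between the days for 2051 genes (14.3%; 1025 lower and 1026 higher at day 5 than at day 3). In the ER chaperone list 21 of 31 differed, 18 toward higher values at day 5. Hspa5, at 5365 to 7249 CPM in the day 3 controls, was at 1261 to 1518 CPM in the day 5 controls and 1119 to 1237 CPM in the day 5 KO libraries, next to 1606 to 1725 CPM in the day 3 KO libraries. The day 3 controls thus stood apart from the other 3 groups for this gene. The same held for Hsp90b1, Ddit3 and Slc6a9. Ddit3 was at 251 to 278 CPM in day 3 control, 61.4 to 73.3 in day 3 KO and 29.0 to 42.4 in day 5 control. Slc6a9 was at 156 to 184, 16.9 to 22.3 and 19.5 to 28.2 CPM in these groups. For Xbp1 the day 5 controls (122 to 137 CPM) lay above the day 3 KO libraries (72.2 to 96.7 CPM). The cause was not tested. Of 28 spindle genes 15 differed, all toward lower values at day 5, and Plk1, at 7.93 to 10.0 CPM in the day 3 controls and 14.4 to 19.7 CPM in day 3 KO, was at 36.7 to 49.4 CPM in the day 5 controls and 28.8 to 34.5 CPM in day 5 KO. Of the SRF and YAP targets 10 of 24 differed, all toward lower values at day 5. For the ribosomal proteins 4 of 78 differed, for the synthetases 1 of 20, for the cartilage genes 2 of 20 and for the small leucine-rich proteoglycans none of 10.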

How the data were processed

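RNA was measured with stranded poly(A) libraries read on a NextSeq 500 in 80-base pairs, per the labels' protocols. The deposited files hold whole-number read counts per Entrez gene, not normalized, made by the authors with featureCounts on mm10 per the submitters' processing notes. The sources used here do not state the aligner, annotation release, strand setting or treatment of multiply matching reads, so overlapping and antisense genes cannot be told apart. Lines without a gene identifier held 0.194% to 0.315% of counts and were left out. Of 26270 identifiers 25275 matched a mouse symbol. Xist, Tsix and 112 sex-linked entries in all, Y-linked genes among them, stayed out of the tests.

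All 14 libraries were fitted together with 1 mean per genotype and day, so that all share the estimate of spread (edgeR 4.0.16 in R 4.3.3). Genes with few counts were removed by filterByExpr, libraries were scaled by TMM and the quasi-likelihood fit was robust. Benjamini-Hochberg adjustment ran over 14327 genes, the call threshold was an adjusted p below 0.05, and the common coefficient of biological variation was 0.151. The SE is the fold change divided by the square root of F. On simulated counts for 14074 genes of the day 3 comparison, 18 of 50 genes changed by 1.5-fold, 43 of 50 by 2-fold and all 50 at 4-fold and at 8-fold were recovered, and 5 of 13874 unchanged genes were called. The simulated libraries were independent, with the same spread for every gene, no embryo or litter effect and few changed genes. These simulated counts therefore do not measure the rate of false calls in the data. Principal components used log2 CPM with a prior count of 2. The alternatives used limma 3.58.1 and DESeq2 1.42.0, and Python 3.11.15, pandas 2.3.3, SciPy 1.17.1 and matplotlib 3.10.9 did the rest. Promoter sequences are from RefSeq (GRCm38.p6).

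Count profiles of every pair within a group differed beyond sampling noise (chi-square per degree of freedom 5.3 to 49.6), so no library was a copy of another. Counting intervals are exact at 95% and, like the floor of 3 counts, hold for counting error alone, as reads were not tagged with molecular identifiers.

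The comparison, its 76 gene lists and the tests were chosen with earlier results of these data known. Named were Kat5, the 8 highest and 8 lowest called, non-overlapping genes by fold change at 20 CPM or more, the 6 largest gains and losses in CPM, each described list's key genes and up to 3 called members with the smallest adjusted p, the 5 genes with the widest spread within KO, and the promoters of 4 ER chaperones. Clone and predicted-gene names were left out of these choices. Some genes that these choices name are not reported here. A few further genes are named because the text turns on them.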

Additional observations from a re-analysis of the deposited data

Results flagged for a closer look

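For 103 of the genes named, the KO effect at day 5 differed from that at day 3 by the test of the difference itself (interaction in edgeR's quasi-likelihood fit, adjusted p below 0.05). It ran toward higher values at day 5 for 47 and toward lower values for 56. The values below are day 5 minus day 3 in log2 fold change. No cause was tested. The day 5 libraries include litters that day 3 does not, while 5 embryos gave libraries at both days, which the test treats as independent. With the embryo as a random block (limma-voom) 96 of the 103 differences were called in the same direction. The other 7 were Cxcl5 (adjusted p = 0.368), Cemip (0.0502), Matn3 (0.0559), Ifitm1 (0.0905), Il6 (0.208), Pi15 (0.303) and Nr1d1 (0.0502).

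Most genes of ER folding and its response, which fell at day 3, differed toward higher values at day 5. They were Hspa5 (1.66), Hsp90b1 (1.23), Calr (0.84), Sdf2l1 (1.55), Manf (1.23), Creld2 (1.59), Pdia4 (1.30), Pdia6 (0.76), Canx (0.48), Dnajc3 (0.87) and Ero1b (2.12), then Derl3 (5.70), Syvn1 (0.67), Alg12 (0.83), Ddit3 (1.40), Xbp1 (0.45), Atf6 (1.13), Sel1l (1.05), Edem1 (0.48), Herpud1 (1.18), Spcs2 (0.40), Gnpnat1 (1.19), Rpn1 (0.43) and Ppp1r15a (1.59). In 2 transport genes, Kdelr3 (-0.66) and Sec24d (-0.84), the difference ran the other way. Of these, Ero1b, Alg12 and Atf6 were called lower at day 3 and higher at day 5 (log2 fold changes of 1.16, 0.35 and 0.17 at day 5). Derl3 was near 0 at day 5 in both genotypes, at 0.213 to 0.66 CPM in KO and 0.0644 to 0.509 CPM in control.

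Amino acid and protein synthesis genes differed the same way, in Slc6a9 (1.72), Slc7a11 (1.76), Cth (0.86), Chac1 (0.84), Psph (0.96), Wars (1.38) and Gadd45a (1.62) and in Rpl10a (0.73), Gnl3 (0.59), Nop14 (0.46), Eif2s2 (0.43), Hspa8 (0.78) and Myc (0.83). So did the lysosomal and autophagy genes Ctsl (0.55), Npc1 (1.05) and Sqstm1 (0.90), and Sh2d6 (3.32), Chchd10 (2.88), P3h2 (2.24), Zfp57 (1.25), Hnrnpa3 (0.74), Mmp11 (1.10) and Nr1d1 (0.51). Sh2d6 was low at day 5 in both genotypes, at 0.497 to 0.805 CPM in KO and 0.145 to 2.23 CPM in control.

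Genes of division and repair differed toward lower values at day 5. They were Plk1 (-1.38), Mki67 (-1.01), Kif11 (-1.16), Cenpf (-0.81), Nuf2 (-1.45), Mad2l1 (-0.74), Ect2 (-0.78), Incenp (-0.68) and Cdc20 (-1.10), then Mcm5 (-1.02), Rrm2 (-1.27), Ccnd1 (-0.76), Cdkn2c (-1.21), Brca1 (-0.81), Brca2 (-0.76), Fancm (-0.65), Fanci (-1.02), Clspn (-0.84), Ccng1 (-0.71) and Fas (-1.50). Plk1 and Mki67 were called higher at day 3 and lower at day 5 (-0.51 and -0.46 at day 5).

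Matrix and signalling genes also differed toward lower values. They were Thbs1 (-1.91), Col1a1 (-1.34), Col3a1 (-1.54), Cemip (-3.63), Matn3 (-2.40), Col11a1 (-1.77), Emilin1 (-1.86), Loxl1 (-0.56), Serpinh1 (-0.43) and Tpm1 (-1.13), then Id1 (-0.93), Id2 (-0.84), Id3 (-1.35), Fst (-2.25), Sfrp1 (-1.95), Dkk3 (-1.58), Igfbp5 (-1.20), Zim1 (-1.61), Peg3 (-1.58), Prrx1 (-0.74) and Prrx2 (-1.63). Col1a1 was called higher at day 3 and lower at day 5 (-0.38 at day 5). Day 5 control replicate 4 was the only male control and the only control of its litter. For several genes it lay apart from the other day 5 controls. It was at 22729 CPM for Thbs1 (others 10613 to 10787), 779 for Col11a1 (239 to 322) and 825 for Cemip (97.7 to 154). For Igfbp5, Peg3 and Prrx1 it was the lowest day 5 control. Its part in the differences was not tested. The inflammatory and other genes were Cxcl5 (-6.15), Ifitm1 (-2.83), Il6 (-2.82), Il6st (-1.06), Stat3 (-0.89), C1qtnf1 (-2.85) and Pi15 (-2.83) and Hif1a (-1.68), Epas1 (-1.76), Ldhb (-0.60), Slc16a3 (-0.93), Sdha (-0.34) and Cyp1b1 (-1.52). Stat3 was called higher at day 3 and lower at day 5 (-0.41 at day 5).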

How the results depend on the processing

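Of 256 genes named, 241 kept their direction under all 19 alternatives, and of the 227 called, 159 stayed past the threshold in all of them. The number of genes called was 7288 as reported, 4735 (2240 higher, 2495 lower) with every library thinned to the shallowest, where fewer genes were tested, and 2279 (1372 higher, 907 lower) past 1.5-fold. Kat5, at -0.684 there, missed that stricter test. Leaving out 1 library gave 6243 to 6786 called (2985 to 3316 higher, 3204 to 3504 lower), and Kat5 stayed at -0.753 to -0.613. The replicate numbers 2 and 3 that both groups hold name different embryos, and their libraries' deviations correlated at -0.0507 and -0.021, so they share only a number. With the 2 control libraries of 1 embryo summed 6731 genes were called, and of the genes named Mxd4, Runx2, Col4a1, Mmp2, Mmp3, Igfbp3, Ahrr and Thbs2 lost their call (adjusted p 0.0502 to 0.0984). With the embryo as a random block in limma-voom 7134 were called, and Cxcl5, Mmp3, Igfbp3, Ifit1, Il6, C3 and Ahrr lost theirs (adjusted p 0.0505 to 0.537). With a replicate block 6863 genes were called (3320 higher, 3543 lower).

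The reversals were all of genes not called as reported. One of them, Hspb1, was called higher in females alone (adjusted p = 0.0139) and lower without KO replicate 2 (-0.499, adjusted p = 0.0131), so its direction rests on the libraries used. They were, with no low-count filter, Trrap (0.007) and E2f1 (0.011). Under upper quartile scaling they were Trrap (0.114), Hspb1 (0.016), Ctsd (0.099), E2f1 (0.114) and Chek1 (0.041). With the day 3 libraries alone they were Trrap (0.027), Ctsd (0.011) and E2f1 (0.026). In females alone they were Slc7a11 (-0.121), Hspb1 (0.363), E2f1 (0.071), Chek1 (0.316), Atm (-0.140), Thbs4 (-0.098), Ankrd1 (0.277), Grem1 (-0.200) and Isg15 (-0.888). With sex as a covariate they were Hmgcs1 (0.146), E2f1 (0.015), Chek1 (0.140) and Grem1 (-0.158), and with the replicate block Hmgcs1 (0.062) and E2f1 (0.021). Thinned, they were Ctsd (0.031), E2f1 (0.197) and Dbp (0.277), with limma-voom Chek1 (0.064) and Isg15 (-0.308), and with DESeq2 Trrap (0.001). With 1 library left out the ranges were -0.067 to 0.017 for Trrap, -0.499 to 0.073 for Hspb1, -0.118 to 0.082 for Ctsd, -0.107 to 0.6 for Ccnb1, -0.062 to 0.088 for E2f1, -0.523 to 0.161 for Chek1, -0.128 to 0.219 for Atm, -0.025 to 0.113 for Ccng1, -0.51 to 0.677 for Isg15 and -0.258 to 0.042 for Dbp. The causes were not tested. KO replicate 3, with 2187168 counts, limits what can be read of genes at a few CPM.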

Other observations

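Genes of the response to aryl hydrocarbons, a sensor of xenobiotics, were mainly higher in KO. Of 11 listed, 9 passed the filter on low counts, some only through KO, and of these 6 rose and 1 fell, which is a description. Cyp1b1, a cytochrome P450, was at 108, 109.7 and 164 CPM in control and 451, 613 and 676 CPM in KO, without overlap (log2 fold change 2.18 ± 0.35, adjusted p = 0.000298). The detoxifying Nqo1 rose (1.37 ± 0.16), and the transporter Slco1a4 had no counts in control and 210 in KO, at least 44.5-fold higher against a floor of 3 counts over the group. The repressor Ahrr (0.91 ± 0.32, adjusted p = 0.0303) lost its call without any library but KO replicate 3 (adjusted p up to 0.148) and with the embryo block (adjusted p = 0.0505).

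Iron handling was mixed, with 4 of 13 genes higher (2 without KO replicate 3 or 4 or control replicate 1 or 3) and 2 lower. Tfrc, the transferrin receptor that takes up iron, was at 495, 386 and 416 CPM in control and 159.9, 138 and 107 CPM in KO (log2 fold change -1.68 ± 0.42, adjusted p = 0.00587), fully separate, and the haem-degrading Hmox1 fell from 308, 239.9 and 265 CPM to 128, 152 and 159 CPM (log2 fold change -0.89 ± 0.10, adjusted p = 9.34e-06). The storage protein Fth1 rose (0.64 ± 0.19) but not without KO replicate 4 (adjusted p = 0.0584).

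Of 19 circadian clock genes 4 rose and 5 fell. The activator Arntl fell from 105, 99.1 and 88.6 CPM to 44.1, 40.4 and 37.1 CPM (log2 fold change -1.26 ± 0.19, adjusted p = 0.00013) and the repressor Ciart from 15.8, 15.4 and 14 CPM to 6.25, 3.76 and 3.42 CPM (log2 fold change -1.65 ± 0.31, adjusted p = 0.000625), while the output genes Nr1d1 (0.12 ± 0.12) and Dbp (-0.14 ± 0.21) were not called. The clustered protocadherins, cell surface proteins encoded in gene arrays, were called in 8.11% of 37 tested, 2 higher (1 without KO replicate 3 or 4 or control replicate 1 or 2) and 1 lower (2 without KO replicate 3 or 4). The other lists had, higher and lower, 9 and 2 of 16 retinoid genes (1 lower with any library left out), 5 and 3 of 12 adipocyte genes (3 higher without KO replicate 4 or control replicate 2), 5 and 4 of 21 NRF2 targets, 5 and 8 of 27 immediate early genes, 5 and 2 of 10 tight junction genes, 4 and 4 of 13 polyamine and pyrimidine genes, 2 and 2 of 7 alpha-arrestins (1 higher without KO replicate 4 or control replicate 1 or 2), and 0 and 2 of 12 fatty acid synthesis genes.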
